A study of Mus musculus with 12 samples.

Results

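The genes described here are 10 of the 55487 genes in the deposited count table, chosen by name as the usual marker genes of macrophage polarisation and inflammation. All 10 were found, each under 1 gene identifier. Arg1, Chil3, Retnla and Klf4 are commonly read as M2-type (alternative activation) genes. Nos2, Il1b, Tnf, Il12b, Il6 and Ptgs2 are commonly read as M1-type or inflammatory genes. They were measured by RNA sequencing of whole tumours grown from Sq-1979, a mouse head and neck squamous cell carcinoma line, implanted subcutaneously with Matrigel; the hosts were male C3H/HeN mice, 6 weeks old at injection. From day 20 the mice received vehicle, the multikinase inhibitor regorafenib at 5 mg/kg/day, an anti-PD1 antibody whose dose the labels do not give, or regorafenib with anti-PD1, called the combination below. Each of the 4 groups had 3 libraries, 12 in all, and every group carried the same tumour line in the same strain and sex, so 1 implanted line stood for the disease. The labels do not state that the 3 libraries of a group came from separate mice, and p-values then measure only the spread between these libraries, which may be technical.

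As background, macrophages change their gene expression with the signals around them. Interferon-gamma and bacterial products acting through Toll-like receptors and NF-kB induce inducible nitric oxide synthase and the cytokines IL-1beta, TNF, IL-12 and IL-6, the state called M1 or classical. IL-4 and IL-13 acting through STAT6 induce arginase 1, the chitinase-like protein Ym1 and the resistin-like molecule Fizz1, the state called M2 or alternative. Arginase 1 and inducible nitric oxide synthase consume the same amino acid, arginine. Tumour macrophages often mix both programmes, and none of the 10 genes is restricted to macrophages: tumour cells, neutrophils, fibroblasts and keratinocytes can express several of them.

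The promoters of 3 of the genes are shown because they are the 3 genes whose differences passed in one of the count models used, DESeq2, though not in edgeR, the main one. Each sequence is the 250 bases before the gene's start in RefSeq (GRCm38.p6), on the gene's own strand, 5′ to 3′, at chr3:106167565-106167814 (minus strand) for Chil3, chr2:129371140-129371389 (minus) for Il1b and chr1:150099781-150100030 (plus) for Ptgs2. Capitals mark a match to a searched motif, which is a description and not a site of binding.
Chil3: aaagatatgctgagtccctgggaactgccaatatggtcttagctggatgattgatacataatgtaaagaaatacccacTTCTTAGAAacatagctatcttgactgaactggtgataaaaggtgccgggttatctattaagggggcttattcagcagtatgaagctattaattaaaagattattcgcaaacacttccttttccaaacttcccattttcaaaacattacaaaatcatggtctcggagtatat
Il1b: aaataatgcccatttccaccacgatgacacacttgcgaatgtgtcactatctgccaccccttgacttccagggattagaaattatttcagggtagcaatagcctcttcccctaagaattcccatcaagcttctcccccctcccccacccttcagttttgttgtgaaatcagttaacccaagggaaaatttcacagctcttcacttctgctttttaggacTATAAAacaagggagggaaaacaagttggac
Ptgs2: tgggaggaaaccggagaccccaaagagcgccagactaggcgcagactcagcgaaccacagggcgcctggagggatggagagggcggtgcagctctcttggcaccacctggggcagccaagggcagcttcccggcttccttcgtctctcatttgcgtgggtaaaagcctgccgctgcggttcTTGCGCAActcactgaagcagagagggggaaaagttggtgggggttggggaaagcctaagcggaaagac

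The capitals in Chil3 are TTCTTAGAA, a match to the STAT motif TTCNNNGAA with its first base at position -172 from the start, and 7.02% of 32851 mouse promoter windows of this length hold that motif on either strand. In Il1b the capitals are a TATA motif (TATAAA) at -31, held by 12.4% of windows. In Ptgs2 they are the C/EBP motif TTGCGCAA at -69, held by 0.164% of windows. Of 7 motifs searched on both strands, the NF-kB motif (GGGA, any base, TTTCC; 0.356% of windows) and the AP-1 motif TGANTCA (6.75%) matched among the members in Il6 alone, at -44 (GGGATTTTCC) and -249. The STAT6 motif (TTC, any 4 bases, GAA; 5.85%) matched in Retnla alone, at -145 (TTCACAAGAA), and the CRE motif TGACGTCA (1.55%) matched in no member. TATAAA also stood in Retnla at -30 and in Tnf at -29. The sequence table matched 8 of the 10 members; Arg1 and Nos2 are named only.

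Library size ranged from 22591835 to 28209036 counts. Levels are given in CPM, counts relative to library size after trimmed-mean (TMM) scaling. The tests ran on the raw counts of 16974 genes with edgeR's quasi-likelihood test and Benjamini-Hochberg adjustment over those genes, a call being an adjusted p under 0.05. The macrophage markers showed that macrophage RNA was present in each tumour: all 10 were detected in every library, none at 0, and none of the 10 passed the test in the average effect of regorafenib. Their summed level ran from 677 to 856 CPM in vehicle, 666 to 1513 CPM with anti-PD1, 561 to 1325 CPM with regorafenib and 442 to 1270 CPM with the combination. Squamous markers were high in every library, from 9814 CPM upward. Some libraries stood apart. Combination 1 had the lowest macrophage sum and the highest summed neutrophil markers, 301 CPM against 69.8 to 158 CPM elsewhere. Of that sum, 275 CPM came from Mmp9, a protease gene that other cells express too, and the other 9 neutrophil markers gave 26.4 CPM there against 9.83 to 48.3 CPM elsewhere. Regorafenib 1 had 2.03 CPM of skeletal muscle markers against 92.3 CPM or more elsewhere. Summed fibroblast markers were 23147 to 31396 CPM in vehicle and 4158 to 12078 CPM in the combination, without overlap. With anti-PD1 they were 5802 to 31451 CPM and with regorafenib 4940 to 28772 CPM, so these groups held low libraries as well. In bulk tissue, fewer cells of a type and less RNA per cell cannot be told apart.

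Compared per exonic kilobase, so that genes of different length can be set side by side, Klf4 was the most abundant of the 10 in every group. Klf4 encodes a zinc-finger transcription factor that is also made by epithelium. Its level was 71.5 ± 11.4 CPM per kilobase (SD, n = 3) in vehicle, and its libraries did not overlap those of the next gene in any group. In vehicle the order after it was Retnla at 11.9 ± 17.7 CPM per kilobase, Il1b at 7.37 ± 1.20, Tnf at 3.42 ± 0.42, Il12b at 2.51 ± 0.86, Nos2 at 1.89 ± 1.5, Ptgs2 at 1.09 ± 0.28, Arg1 at 0.478 ± 0.127, Chil3 at 0.146 ± 0.081 and Il6 at 0.107 ± 0.020. Retnla and Il1b, the neighbours from Tnf to Ptgs2, and Chil3 and Il6 overlapped in their libraries, and the other neighbours did not. Il1b was the most abundant cytokine of the set in all 4 groups, at 13.6 ± 1.9 CPM per kilobase in the combination. Arg1 took rank 8 of 10 in vehicle and rank 4 with regorafenib, where its spread, 4.13 ± 4.86 CPM per kilobase, overlapped that of its neighbours.

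Of the M2-type genes, Arg1 and Chil3 averaged higher with regorafenib, Retnla varied more between libraries than between groups, and Klf4 hardly differed. No M2-type gene passed edgeR's test in any comparison. Arg1 (ENSMUSG00000019987, GRCm38 chromosome 10, 24915221 to 24927484, minus strand) encodes arginase 1, which splits arginine into urea and ornithine. Arg1 measured 1.38, 0.959 and 0.848 CPM in the vehicle libraries and 4.79, 1.23 and 1.80 CPM with anti-PD1. With regorafenib it measured 21.7, 3.25 and 2.66 CPM, and with the combination 2.12, 1.91 and 6.09 CPM. The 3 regorafenib libraries lay above all 3 vehicle libraries, beside 10.6% of all genes, and so did the 3 combination libraries, beside 19.6%. Anti-PD1 1 lay above 4 of these 6 libraries with regorafenib. Regorafenib alone gave an Arg1 level 8.63-fold that of vehicle, a log2 fold change of 3.11 ± 0.89 (SE, edgeR adjusted p = 0.201). Added to anti-PD1, regorafenib gave a difference of 0.38 ± 0.82 (edgeR adjusted p = 0.848), with 1 of 3 combination libraries above the anti-PD1 mean. The average effect of regorafenib over both backgrounds, the mean of regorafenib minus vehicle and combination minus anti-PD1, was 1.74 ± 0.60 on the log2 scale (edgeR adjusted p = 0.0906). One library carried much of this: without regorafenib 1, the edgeR log2 fold change against vehicle was 1.47 (adjusted p = 0.326) and the average effect 0.92 (adjusted p = 0.196).

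Chil3 (ENSMUSG00000040809, chromosome 3, 106147554 to 106167564, minus strand) encodes Ym1, a secreted chitinase-like protein. It was near the detection limit, with 3 to 9 counts in the vehicle libraries and 49 counts at most, in combination 3. Chil3 measured 0.378, 0.221 and 0.116 CPM in vehicle and 0.255, 0.192 and 0.718 CPM with anti-PD1. It measured 1.10, 1.5 and 0.295 CPM with regorafenib and 0.309, 0.835 and 1.77 CPM with the combination. In each regorafenib-treated group 1 library, regorafenib 3 and combination 1, lay within the range of the libraries without regorafenib. The average regorafenib effect on Chil3 was 1.65 ± 0.55 on the log2 scale (edgeR adjusted p = 0.0825), and DESeq2 called it (adjusted p = 0.0318). Chil3 reached the level of the filter on low counts in 0 vehicle, 1 anti-PD1, 2 regorafenib and 2 combination libraries. Its entry into the test thus rested mostly on libraries with regorafenib, where it averaged higher. With no filter the edgeR adjusted p was 0.125. Chil3 and its near copy Chil4 share 94.3% of their transcript bases, so reads could be split between them, and Chil4 itself had 0 to 9 counts.

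Retnla (ENSMUSG00000061100, chromosome 16, 48842551 to 48844461, plus strand) encodes Fizz1, a small secreted protein induced by IL-4. Its raw counts were 2, 54 and 501 in the vehicle libraries and 39, 27 and 19 with anti-PD1. They were 554, 28 and 75 with regorafenib, and 0, 108 and 325 with the combination. High libraries thus occurred in vehicle, regorafenib and the combination, and the lowest in vehicle and the combination. The count of 0 in combination 1 allows a level of up to 0.133 CPM, by counting error only. The average regorafenib effect was 1.28 ± 1.15 (log2, SE), and leaving out regorafenib 1 alone lowered it to 0.19. Retnla transcripts are 82.0% identical to those of Retnlg, which had 1 to 57 counts.

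Klf4 (ENSMUSG00000003032, chromosome 4, 55527143 to 55532466, minus strand) measured 188, 256 and 210.0 CPM in vehicle and 229, 193 and 139.9 CPM with anti-PD1. It measured 149.6, 129.9 and 295 CPM with regorafenib and 317, 213 and 191 CPM with the combination. The groups overlapped throughout, and the average regorafenib effect was 0.09 ± 0.22 on the log2 scale. Across the 12 libraries log2 Klf4 ran opposite to the summed macrophage markers (Pearson r = -0.92, Spearman rho = -0.94) and monocyte markers (r = -0.93, rho = -0.96). These correlations describe 12 libraries of 4 groups whose levels share a total, and carry no test.

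**Figure D1:**
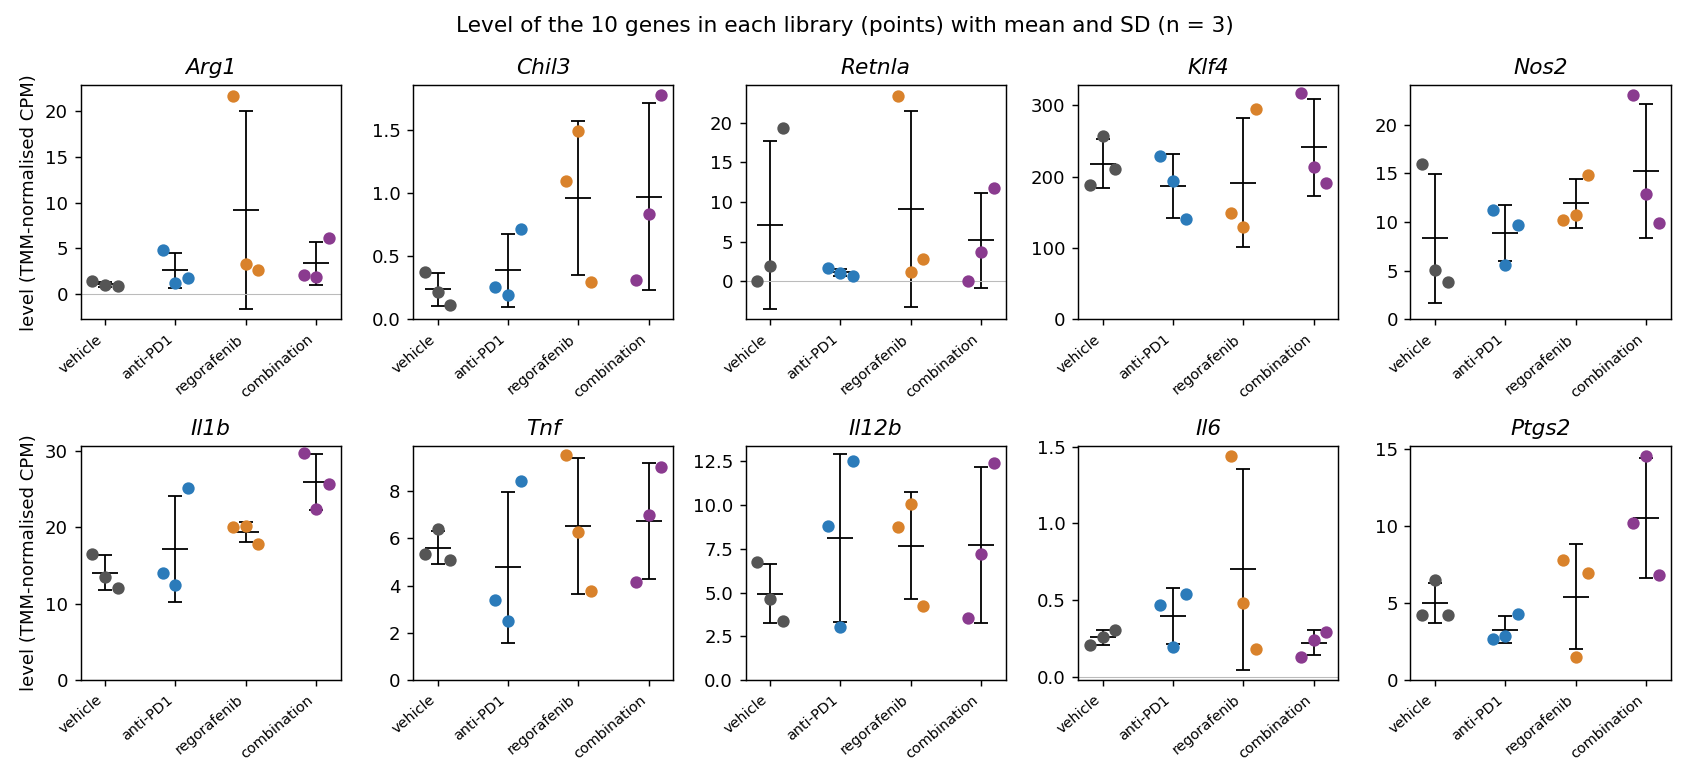
Levels of the 10 genes in TMM-normalised CPM (y axis, own scale per gene) by treatment group (x axis). Points are libraries, the long line is the group mean and the bar its SD (n = 3); in Arg1 the library regorafenib 1 sits at 21.7 CPM, above the other 11, while the 3 combination libraries of Il1b and Ptgs2 lie above all 3 vehicle libraries.

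Of the M1-type and inflammatory genes, Il1b, Ptgs2, Nos2 and Tnf had their highest group mean in the combination. Nos2, Tnf, Il12b and Il6 overlapped between groups in every comparison. Il1b (ENSMUSG00000027398, chromosome 2, 129364570 to 129371139, minus strand) encodes IL-1beta, a fever-inducing cytokine that needs cleavage to be active. Il1b measured 16.6, 13.5 and 12.1 CPM in vehicle and 14, 12.4 and 25.2 CPM with anti-PD1. It measured 20.0, 20.2 and 17.8 CPM with regorafenib and 29.7, 22.4 and 25.6 CPM with the combination. The 3 regorafenib libraries exceeded every vehicle library, beside 10.6% of all genes, and so did the 3 combination libraries, beside 19.6%. Anti-PD1 3 alone among the libraries without regorafenib reached their range. The combination level was 1.84-fold that of vehicle (log2 fold change 0.88 ± 0.24 SE, edgeR adjusted p = 0.0512), just short of a call, and DESeq2 called it (adjusted p = 0.0103). The average regorafenib effect was 0.53 ± 0.17 on the log2 scale (edgeR adjusted p = 0.0740, DESeq2 adjusted p = 0.0317). Leaving out 1 library at a time gave edgeR average effects from 0.43 to 0.71. The adjusted p ran from 0.0165, without anti-PD1 3, up to 0.165. Il1b shares 25 exonic bases with Il1bos on the opposite strand. Log2 Il1b followed summed neutrophil markers with r = 0.71 (rho = 0.62) over the 12 libraries, and with r = 0.81 (rho = 0.75) when Mmp9, the largest part of that sum, was left out. Of the 9 neutrophil markers tested, 2 rose in the average regorafenib effect, Clec4d and Trem1, beside 6.16% of all genes. All 9 had positive log2 fold changes, with a median of 1.28, and the part of neutrophils in the Il1b level was not tested.

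Ptgs2 (ENSMUSG00000032487, chromosome 1, 150100031 to 150108227, plus strand) encodes cyclooxygenase 2, the inducible enzyme of prostaglandin synthesis. Ptgs2 measured 4.24, 6.49 and 4.24 CPM in vehicle and 2.67, 2.88 and 4.31 CPM with anti-PD1. It measured 7.78, 1.5 and 6.98 CPM with regorafenib and 10.2, 14.5 and 6.81 CPM with the combination. The 3 combination libraries lay above all 3 vehicle libraries, beside 19.6% of all genes, and above all 3 anti-PD1 libraries, beside 13%. Regorafenib alone gave the single lowest value, in regorafenib 2. Adding regorafenib to anti-PD1 gave 3.19-fold the Ptgs2 level (log2 fold change 1.67 ± 0.51 SE, edgeR adjusted p = 0.118), and DESeq2 called it (adjusted p = 0.0193). Against vehicle the combination differed by 1.07 ± 0.50 (edgeR adjusted p = 0.195) and regorafenib alone by 0.12 ± 0.50. Without regorafenib 2 the average regorafenib effect, 0.90 ± 0.36 with it, became 1.12 and passed edgeR's test (adjusted p = 0.0220). Over all runs without 1 library it ranged from 0.72 to 1.12, with edgeR adjusted p up to 0.279.

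Nos2 (ENSMUSG00000020826, chromosome 11, 78920787 to 78960254, plus strand) encodes inducible nitric oxide synthase. Nos2 measured 15.9, 5.13 and 3.90 CPM in vehicle, 11.2, 5.64 and 9.66 CPM with anti-PD1, 10.2, 10.8 and 14.8 CPM with regorafenib and 23.0, 12.8 and 9.93 CPM with the combination. Vehicle 1 lay above all 3 regorafenib libraries, so the groups overlapped. For Nos2 the average regorafenib effect was 0.65 ± 0.36 on the log2 scale (edgeR adjusted p = 0.263).

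Tnf (ENSMUSG00000024401, chromosome 17, 35199381 to 35202007, minus strand) encodes tumour necrosis factor. Tnf measured 5.33, 6.38 and 5.09 CPM in vehicle, 3.39, 2.5 and 8.40 CPM with anti-PD1, 9.51, 6.24 and 3.77 CPM with regorafenib and 4.15, 7 and 9.02 CPM with the combination. The vehicle libraries lay close together and each treated group reached both above and below them. For Tnf it was 0.36 ± 0.33 on the log2 scale. Over the 12 libraries log2 Tnf followed the summed dendritic cell markers (r = 0.91, rho = 0.90). Fscn1, which other cells express too, made up 55.3% to 80.0% of that sum in every library, and without it r was 0.79 (rho = 0.71).

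Il12b (ENSMUSG00000004296, chromosome 11, 44400063 to 44414033, plus strand) encodes the p40 chain shared by IL-12 and IL-23. Il12b measured 6.75, 4.65 and 3.39 CPM in vehicle, 8.78, 3.03 and 12.5 CPM with anti-PD1, 8.75, 10.1 and 4.21 CPM with regorafenib and 3.54, 7.20 and 12.4 CPM with the combination. The regorafenib and combination libraries reached above the vehicle range and into it, and those with anti-PD1 lay on both sides of it. Its average regorafenib effect was 0.28 ± 0.40, and log2 Il12b followed the summed T cell markers (r = 0.92, rho = 0.92).

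Il6 (ENSMUSG00000025746, chromosome 5, 30013114 to 30019981, plus strand) encodes the acute-phase cytokine IL-6. It was barely detected: raw counts were 5, 7 and 8 in vehicle, 11, 5 and 15 with anti-PD1, 34, 11 and 5 with regorafenib and 3, 7 and 8 with the combination. In CPM the highest value was 1.44 in regorafenib 1 and the lowest 0.133 in combination 1. Its average regorafenib effect was 0.30 ± 0.49, and regorafenib against vehicle, 1.41 ± 0.67 (edgeR adjusted p = 0.372), dropped to 0.33 without regorafenib 1.

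Counted together, 0 of the 10 genes passed edgeR's test in any of the 6 comparisons. In the average regorafenib effect 9.49% of all genes tested were called. In the combination against vehicle 7.34% were called (5.03% higher and 2.32% lower), in the combination against anti-PD1 1.92% (1.7% higher and 0.224% lower), in regorafenib against vehicle 0.00589%, and in anti-PD1 against vehicle and in the interaction 0%. DESeq2 called 2 in the average effect, 1 in the combination against vehicle, 1 in the combination against anti-PD1 and 0 in the other 3. Over all genes, DESeq2 called 1516 higher and 1233 lower of 16732 in the average effect, where it gave no adjusted p for Arg1. All 10 genes passed the filter on low counts. Chil3 reached the filter's level in 5 of 12 libraries, 4 of them treated with regorafenib, and Il6 in 4. At an unadjusted p under 0.05, 4 of 10 genes passed in the average regorafenib effect (Arg1, Chil3, Il1b and Ptgs2), beside 28% of all genes. In regorafenib against vehicle 2 passed, Arg1 and Chil3, beside 14.1%, and in the combination against vehicle 2 passed, Chil3 and Il1b, beside 27.9%. In the combination against anti-PD1 2 passed, Il1b and Ptgs2, beside 19.3%. In anti-PD1 against vehicle 0 passed, beside 5.17%. The interaction, which asks whether the effect of regorafenib differed with and without anti-PD1, passed at that unadjusted level for 2, Arg1 (log2 difference -2.73 ± 1.20) and Il6 (-2.22 ± 0.97), beside 2.65% of all genes. Without regorafenib 1 the difference was -1.09 for Arg1 and -1.15 for Il6. Between the 6 libraries with regorafenib and the 6 without it, 0 of the 10 genes were higher without overlap, beside 2.87% of all genes. In the same comparison 0 were lower, beside 1.77%. With 3 against 3 libraries, regorafenib and vehicle did not overlap for Arg1 and Il1b, both higher, beside 10.6% of all genes. The combination and vehicle did not overlap for Arg1, Il1b and Ptgs2, all higher, beside 19.6%. The combination lay above anti-PD1 without overlap for Ptgs2, beside 13%. Anti-PD1 had 0 of the 10 above vehicle without overlap, beside 7.93%. None lay lower without overlap in regorafenib against vehicle (10.2% of all genes), anti-PD1 against vehicle (9.08%), the combination against vehicle (19.6%) or the combination against anti-PD1 (9.09%). These comparisons share libraries and are not independent of each other.

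The fitted log2 fold changes were mostly positive. All 10 were above 0 in the average regorafenib effect, with a median of 1.47 over the 4 M2-type genes and 0.44 over the 6 M1-type genes, beside a median of 0.00 and 50.5% positive over all genes. Marker lists of immune cells were also mostly positive in this effect: 9 of 9 neutrophil markers tested (median 1.28), 8 of 8 T cell markers (0.45) and 4 of 5 monocyte markers (0.84). The same held for 6 of 8 dendritic cell markers (0.35) and 7 of 10 macrophage markers (0.17). Skeletal muscle markers (6 of 6, median 0.40) and adipocyte markers (4 of 5 tested, 0.54) were mostly positive too. Squamous markers (3 of 10, median -0.15) and endothelial markers (2 of 8, -0.37) were mostly negative. Of 8 fibroblast markers 0 were positive (median -1.08). The part of these cells in the members' shift was not tested. Against vehicle the medians were 1.17 and 0.49 with regorafenib and 0.90 and 0.76 with the combination, beside 0.01 and 0.02 over all genes. The number of positive values was 9 of 10 with regorafenib, 8 with the combination and 6 with anti-PD1.

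**Figure D2:**
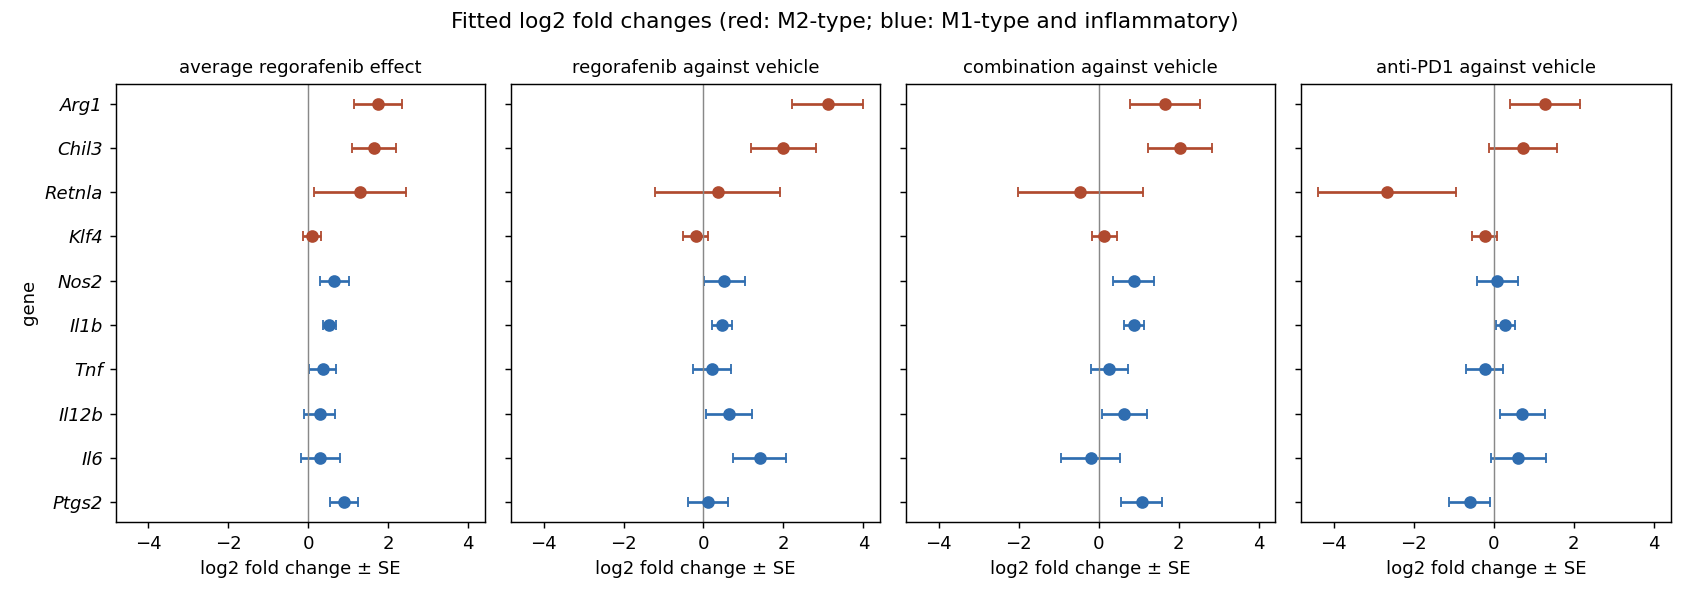
Fitted log2 fold change with its SE (x axis) for each gene (y axis) in 4 comparisons, M2-type genes in red and M1-type genes in blue. The values of Arg1 and Chil3 lie farthest to the right with regorafenib, Retnla has the widest error, and Klf4 stays within 0.22 of 0.

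The ratio of Nos2 to Arg1 per exonic kilobase, a common shorthand for the use of arginine, differed more within groups than between them. It was 5.81, 2.7 and 2.32 in vehicle and 1.18, 2.32 and 2.72 with anti-PD1. It was 0.237, 1.67 and 2.81 with regorafenib and 5.48, 3.39 and 0.824 with the combination. Arginase 1 was thus the more abundant transcript in regorafenib 1 and combination 3 and Nos2 in the other 10 libraries. The mean log2 difference from vehicle was higher for the 4 M2-type genes than for the 6 M1-type genes in all 3 regorafenib libraries, M1 minus M2 being -1.42, -0.43 and -0.52. In the combination it was 1.06, -0.20 and -1.22, in anti-PD1 -0.44, -0.34 and 0.61, and in vehicle 0.93, -0.05 and -0.88. Leaving out Retnla, which set the spread in vehicle, gave -0.98, -0.83 and -0.54 with regorafenib, -0.24, -0.14 and -0.96 with the combination, -0.66, -0.52 and 0.16 with anti-PD1 and -0.02, -0.03 and 0.05 in vehicle. Both list means were above the vehicle mean in all regorafenib libraries and in 2 of 3 combination libraries, combination 1 having an M2 mean of -0.67. That value came from its Retnla count of 0: without Retnla its M2 mean was 0.63. Single genes did not all follow their list mean. Of the 10 genes, 9, 7 and 7 lay above the vehicle mean in regorafenib 1, 2 and 3. In combination 1, 2 and 3 the numbers were 6, 8 and 9.

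**Figure D3:**
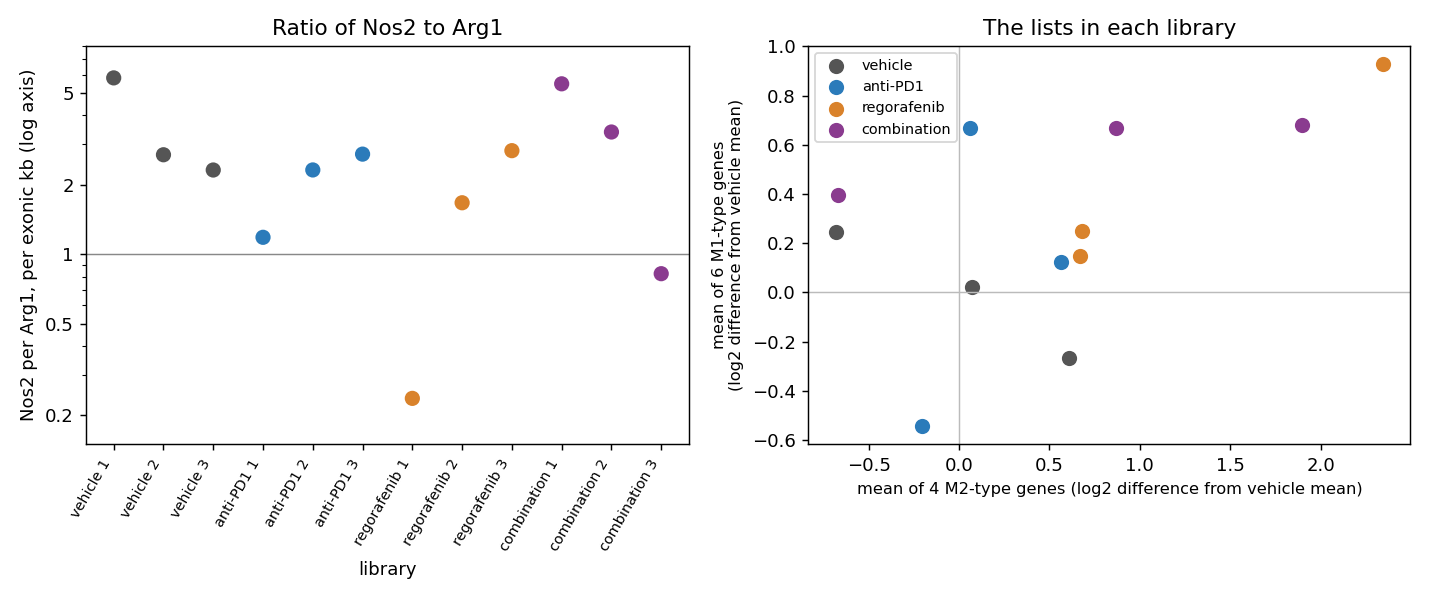
Left, ratio of Nos2 to Arg1 per exonic kilobase (log y axis) in each library (x axis), with a line at 1. Right, mean log2 difference from the vehicle mean of the 6 M1-type genes (y axis) against that of the 4 M2-type genes (x axis), each point a library coloured by group; regorafenib 1 lies farthest from vehicle on both axes, at 2.35 and 0.93.

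Setting each gene against the macrophage markers asks whether it moved beyond those markers, and is a description. Relative to the mean log2 level of the 10 macrophage markers, Chil3 ran from -7.89 to -6.85 in the 6 libraries without regorafenib and from -6.61 to -5.46 in the 6 with it, without overlap. Of all genes tested, 0.289% were higher without overlap in this way and 0.318% lower. In CPM, regorafenib 3 and combination 1, with 8 and 7 counts of Chil3, lay within the range of the libraries without regorafenib. Their summed macrophage markers, 561 and 442 CPM, were the lowest of the 12 libraries, so their separation on this scale rests on low macrophage markers and few Chil3 counts. The mean difference for Chil3 was 1.21 on this scale and 1.32 without the division. For Arg1 it was 1.28 against 1.39, with overlap through anti-PD1 1 at -3.07. The other libraries without regorafenib ran from -5.66 to -5.10, and those with regorafenib from -4.68 to -1.84. Arg1 and Chil3 were both higher without overlap in regorafenib against vehicle (1.4% of all genes) and in the combination against vehicle (3.57%). Tnf and Ptgs2 were lower without overlap in anti-PD1 against vehicle (3.88%), and Chil3, Tnf and Ptgs2 higher in the combination against anti-PD1 (2.62%). No other member was without overlap on this scale: 0 lay lower in regorafenib (9.17%) or the combination (5.64%) against vehicle or the combination against anti-PD1 (1%), and 0 higher in anti-PD1 against vehicle (0.454%). The ratios carry the variation of the macrophage markers too, lowest in combination 1 and highest in anti-PD1 3. Markers of other cells moved with some members as well: summed T cell markers ran with Chil3 at r = 0.86, and the part of T cells in its level was not tested.

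**Figure D4:**
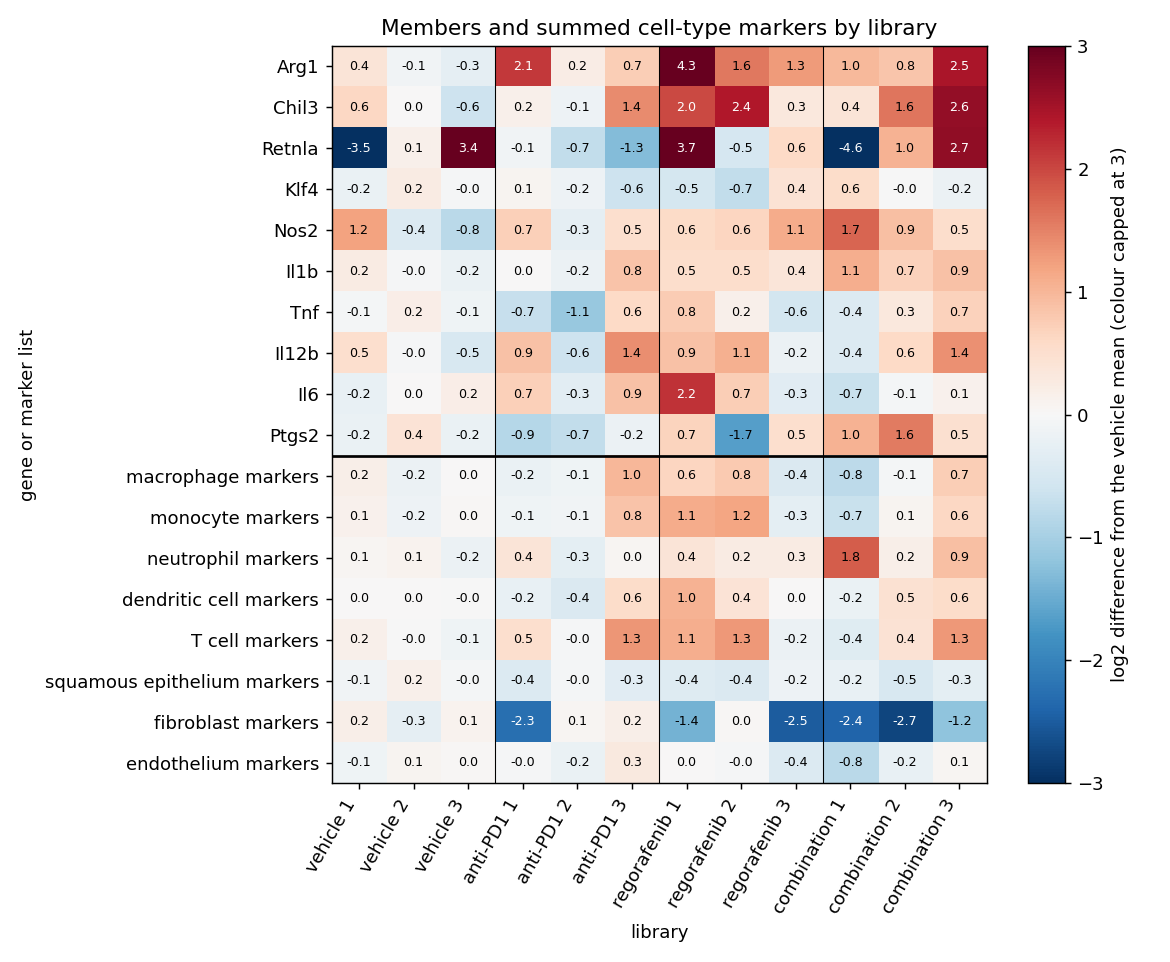
Log2 difference from the vehicle mean (colour, capped at 3, and printed value) of each of the 10 genes and of 8 summed marker lists (rows) in each library (columns). Il1b is at or above the vehicle mean in all treated libraries except anti-PD1 2, and the macrophage row varies within groups from -0.8 to 0.7 in the combination.

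Among themselves the genes paired only loosely over the 12 libraries, by Pearson r of log2 levels. Chil3 followed Il12b (r = 0.81) and Tnf (r = 0.73), an M2-type gene with M1-type ones, and Nos2 followed Il1b (r = 0.70). Arg1 and Il6 had r = 0.71 but rho = 0.33, both being highest in regorafenib 1. Among 12582 protein-coding genes, those most like Arg1 were Eif2ak2 (r = 0.91) and Ifih1 (r = 0.91), which encode sensors of double-stranded RNA, and Dennd2d (r = 0.91). Most like Chil3 were Cyp4f18 (r = 0.97), Sp110 (r = 0.96) and the myeloid receptor gene Cd300lf (r = 0.96). Most like Retnla were F13a1 (r = 0.92), the chemokine gene Ccl6 (r = 0.91) and the complement gene C6 (r = 0.91). For Klf4 they were Gsta4 (r = 0.95), Csnk1e (r = 0.95) and Bnip3 (r = 0.93). For Nos2 they were Trmt13 (r = 0.92), Med25 (r = 0.91) and Tcte2 (r = 0.87). For Il1b they were Abcg4 (r = 0.91), Tln1 (r = 0.90) and Clec4e (r = 0.90), a myeloid C-type lectin gene. For Tnf they were Dna2 (r = 0.92), Ets1 (r = 0.91) and Acod1 (r = 0.91), which makes itaconate. For Il12b they were the immunoproteasome gene Psmb8 (r = 0.97) and the T cell genes Cd6 (r = 0.97) and Il2ra (r = 0.96). For Il6 they were Socs1 (r = 0.90), Riox2 (r = 0.89) and Gimap4 (r = 0.89), and for Ptgs2 they were Nrg1 (r = 0.95), Tube1 (r = 0.90) and Nrp2 (r = 0.90). These are the best of 12582 per gene over 12 libraries of 4 groups, and are descriptions.

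The remaining genes of these pathways were counted by list in the average regorafenib effect, beside 6.16% of all genes higher and 3.32% lower. Of 16 other alternative activation genes, 0 passed and 11 were positive, with a median log2 fold change of 0.36. The smallest p-values there were those of the scavenger receptors Msr1 (0.84, edgeR adjusted p = 0.0600) and Cd163 (1.80, adjusted p = 0.147), the mannose receptor Mrc1 (0.90, 0.161) and Il10 (0.91, 0.196). Of 19 other classical activation genes tested, 1 rose, Socs3, an inhibitor of IL-6 signalling, and 18 were positive, with a median of 0.33. Socs3 measured 71.3, 72.3 and 64.0 CPM in vehicle, 71.2, 60.9 and 72.8 CPM with anti-PD1, 118, 69.9 and 101 CPM with regorafenib and 97.7, 91.7 and 89.4 CPM with the combination (0.46 ± 0.11, adjusted p = 0.0305 by edgeR). Only regorafenib 2 fell within the range of the libraries without regorafenib. The Socs3 call was lost without any 1 vehicle library, anti-PD1 2 or 3, regorafenib 3, or combination 1 or 2. Il1a (0.87, adjusted p = 0.0507), the neutrophil chemokine gene Cxcl2 (1.42, 0.0697) and Acod1 (0.81, 0.155) did not pass.

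Of 12 genes of IL-4 and IL-13 signalling tested, 1 rose, Jak3, the kinase bound to the common gamma chain, and 11 were positive, with a median of 0.22. Jak3 is also expressed by lymphocytes. It measured 62.6, 56.7 and 56.3 CPM in vehicle, 59.1, 55.6 and 82.4 CPM with anti-PD1, 109, 108 and 74.1 CPM with regorafenib and 95.2, 116 and 108 CPM with the combination (0.71 ± 0.12, edgeR adjusted p = 0.0114). Anti-PD1 3 was the one library without regorafenib within the range of those with it. Kdm6b (0.34), Tyk2 (0.12) and Il4ra (0.31) did not pass. Of 14 genes of Toll-like receptor and NF-kB signalling, 0 passed and 9 were positive, with a median of 0.04. Nearest were the feedback inhibitors Zc3h12a (0.53, edgeR adjusted p = 0.0620) and Tnfaip3 (0.29, 0.0906), the co-receptor Cd14 (0.44, 0.0879) and Tlr4 (-0.21, 0.145). Of 11 receptors and inhibitors of the cytokines, 0 passed and 7 were positive, with a median of 0.13. Both IL-1 antagonists came first, the decoy receptor Il1r2 (0.86, edgeR adjusted p = 0.0744) and the receptor antagonist Il1rn (0.84, 0.122), followed by Il12rb1 (0.73, 0.168) and Tnfrsf1b (0.39, 0.340).

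In the prostaglandin list, which holds other enzymes of prostaglandin synthesis and breakdown and the prostaglandin E2 receptors, 1 of 10 genes rose and 1 fell, with 5 positive and a median of -0.02. Ptger1, the EP1 receptor for prostaglandin E2, measured 3.40, 3.36 and 2.85 CPM in vehicle and 3.52, 3.03 and 2.66 CPM with anti-PD1. It measured 5.54, 4.92 and 4.69 CPM with regorafenib and 7.47, 6.86 and 6.41 CPM with the combination. All 6 libraries with regorafenib lay above all 6 without it (0.91 ± 0.12 on the log2 scale, edgeR adjusted p = 0.00453), beside 2.87% of all genes higher without overlap. Ptger3, the EP3 receptor, measured 5.41, 3.62 and 3.93 CPM in vehicle, 2.42, 4.18 and 3.88 CPM with anti-PD1, 1.31, 2.95 and 1.92 CPM with regorafenib and 1.55, 1.60 and 1.88 CPM with the combination. It fell by 1.06 ± 0.22 on the log2 scale (edgeR adjusted p = 0.0196), with overlap through regorafenib 2 and anti-PD1 1, and its call was lost without vehicle 1, anti-PD1 2 or combination 2. Hpgd, which degrades prostaglandins, had -1.38 (edgeR adjusted p = 0.0719) and Ptger2 had 0.79 (0.203).

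In the arginine list, 1 of 11 genes rose and 1 fell, with 6 positive and a median of 0.20. Oat, the mitochondrial enzyme that takes up the ornithine made by arginases, measured 104, 112 and 109 CPM in vehicle and 95.9, 113 and 109 CPM with anti-PD1. It measured 78.4, 89.7 and 81.5 CPM with regorafenib and 90.0, 71.6 and 81.2 CPM with the combination. All 6 libraries with regorafenib lay below all 6 without it (-0.39 ± 0.07, edgeR adjusted p = 0.0119), beside 1.77% of all genes lower without overlap. Arg2, the mitochondrial arginase, measured 0.419, 0.369 and 0.386 CPM in vehicle, 0.382, 0.269 and 0.647 CPM with anti-PD1, 0.761, 0.616 and 0.849 CPM with regorafenib and 0.795, 0.905 and 0.906 CPM with the combination. It rose by 0.96 ± 0.22 (edgeR adjusted p = 0.0278) with overlap through anti-PD1 3, and the call was lost without any 1 vehicle library, anti-PD1 2, regorafenib 3 or combination 2, and also with no filter on low counts (0.0681). The arginine importer Slc7a1 (0.20, edgeR adjusted p = 0.162) and Nos3, the endothelial synthase (-0.31, 0.163), did not pass. In the combination against vehicle, Jak3 (0.86, edgeR adjusted p = 0.0241), Ptger1 (1.11, 0.0122) and Slc7a2 (0.61, 0.0481), another arginine importer named after its value was seen, were higher. Oat (-0.42, 0.0333) and Ptger3 (-1.36, 0.0341) were lower in that comparison. All 5 of these calls were lost without any 1 vehicle library and without combination 1 or combination 2, with adjusted p up to 0.167 for Slc7a2 and 0.0758 for Ptger1. The Slc7a2 call was also lost with RLE scaling, without anti-PD1 2 or 3, and without any 1 regorafenib library. The Oat call was also lost without combination 3. Over all genes, this comparison called 1246 genes in full, 1 without any 1 vehicle library, 23 without combination 1 and 12 without combination 2. In the combination against anti-PD1, Ptger1 was higher (1.17, edgeR adjusted p = 0.0157), beside 1.7% of all genes. That call was lost in 6 of 17 alternatives, among them those without anti-PD1 2 or 3 and without combination 1 or 2.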

How the data were processed

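The 12 tumour libraries were stranded and made from polyadenylated RNA, per the labels' protocols. The authors deposited raw counts per gene. Per the submitters' processing notes, cutadapt 2.4, STAR 2.7.2a and GRCm38 were used; which program counted reads, whether it used strand, and from which annotation, is not given in the sources used here. Lengths, positions and names came from GENCODE M21 (GRCm38), matched for 55227 of 55487 identifiers. The unmodified counts were filtered (filterByExpr, minimum count 10, minimum total 15; 16974 genes, at least 99.91% of counts kept), scaled by TMM and fitted with edgeR 4.0.16 (R 4.3.3, robust quasi-likelihood) as 4 group means over 12 libraries, with 8 residual degrees of freedom. Tests were two-sided. Correlations and level differences used log2 CPM with a prior count of 2. DESeq2 1.42.0, other scalings, no filter, a replicate block, the groups compared alone and leaving out each library were alternatives. Leaving Mmp9 and Fscn1 out of marker sums was added after seeing the data. On simulated counts for 16974 genes, the average regorafenib effect recovered 88% of 2-fold changes and 40% of 1.5-fold changes, with 8 false calls. The combination against vehicle recovered 64% and 24%, with 4 false calls. Recovery at the counts and spread of the members themselves was not tested. Fitted average effects of 3.35-fold for Arg1 and 3.14-fold for Chil3 did not pass edgeR's test.

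The members and lists were chosen with earlier results of these data known. Named were all 10 members, up to 4 genes of each list with the smallest p in the average regorafenib effect, and the 3 protein-coding genes of at least 1 CPM most correlated with each member.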

Additional observations from a re-analysis of the deposited data

How the results depend on the processing

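No member passed edgeR's test in any of the 6 comparisons, and this held under RLE scaling, no filter and the replicate block. DESeq2 called 2 in the average regorafenib effect (Il1b and Chil3), 1 in the combination against vehicle (Il1b) and 1 in the combination against anti-PD1 (Ptgs2), and gave no adjusted p for Arg1. Fitting the 6 vehicle and combination libraries alone called 1 (Il1b, adjusted p = 0.0226). Leaving out 1 library gave 0 to 1 members called in the average effect, the combination against vehicle (Il1b without anti-PD1 1, 2 or 3) and the combination against anti-PD1 (Ptgs2 without regorafenib 2), and 0 to 0 in the other 3.

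Leaving out 1 library turned these log2 fold changes. Average effect: Klf4 from -0.14 to 0.19, Il6 from -0.24 to 0.53. Regorafenib against vehicle: Retnla from -1.83 to 3.13, Klf4 from -0.63 to 0.039, Tnf from -0.17 to 0.50, Ptgs2 from -0.23 to 0.58. Anti-PD1 against vehicle: Chil3 from -0.076 to 1.19, Retnla from -3.24 to 0.10, Nos2 from -0.25 to 0.98, Il1b from -0.084 to 0.49, Tnf from -0.92 to 0.085. Combination against vehicle: Retnla from -1.90 to 2.30, Klf4 from -0.11 to 0.28, Tnf from -0.0059 to 0.51, Il6 from -0.43 to 0.036. Combination against anti-PD1: Arg1 from -0.37 to 1.16, Il12b from -0.59 to 0.36. Interaction: Chil3 from -1.43 to 0.10, Retnla from -0.93 to 4.04, Nos2 from -0.64 to 0.58, Il1b from -0.071 to 0.49, Tnf from -0.041 to 0.95.

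Same-numbered libraries did not deviate together (2 of 18 pairs had a correlation over 0.1, range -0.66 to 0.63, and 2 of 12 libraries correlated best with their own number). With the replicate block, 0 members were called, the Nos2 interaction became -0.023, and Arg2 (adjusted p = 0.0555) and Socs3 (0.0534) lost their calls; Jak3, Oat and Ptger1 kept their calls in the average effect in every alternative run. In the combination against vehicle, the block ended all 5 calls of listed genes. Over all genes the average effect gave 1046 higher and 564 lower, against 375 and 129 with the block, 1516 and 1233 with DESeq2 and 653 and 306 with no filter, which also ended the Arg2 call (0.0681). Leaving out 1 library gave 460 (anti-PD1 2) to 2048 (anti-PD1 1) genes in all. The combination against vehicle gave 853 and 393, against 1398 and 1144 with DESeq2 and 490 and 173 with no filter, and 1 (without any 1 vehicle library) to 1517 (without anti-PD1 1) in all when 1 library was left out. The combination against anti-PD1 gave 288 and 38, and 0 (without anti-PD1 2, anti-PD1 3 or combination 2) to 432 (without combination 3). The average effect and the interaction need all 4 groups, so the fit of 6 libraries was not run for them. Counting depth limits Chil3 and Il6, and Retnla where its counts were 2 or 0. The causes of these changes were not tested.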
